A study of Mus musculus with 12 samples.

Results

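The 9 noncoding RNA entries listed next are described here in primary mouse cultures, labelled as motoneurons, that lack or carry the mouse Smn1 gene. They are 9 of the 39174 gene identifiers in the deposited tables, with the names PVT1_1, Gm26924, Malat1, Neat1, Meg3, Rian, Miat, Snhg11 and H19. The last 7 were taken as known noncoding RNAs of neurons and embryonic tissue, though with earlier results of these data known. PVT1_1 and Gm26924 were picked because of how their values run across the groups. For those 2 the FPKM of all 12 libraries had been seen when they were chosen, so their values are given as a description, without a test. All 9 reached 1 FPKM in at least 3 of the 12 libraries and were among the 15012 genes fitted. FPKM is a fragment count scaled to transcript length and to the depth of the library.

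SMA cultures were Smn-/-;SMN2, null for the mouse Smn1 gene. Control cultures were Smn+/+;SMN2, so both genotypes carry the human SMN2 transgene, and both were on the FVB strain. The 4 groups of 3 libraries each were untreated SMA, untreated control, SMA with 0.5 µM R-Roscovitine and control with 0.5 µM R-Roscovitine, a small molecule that blocks several cyclin-dependent kinases and also acts on presynaptic calcium channels. The sources used here give neither the age of the animals nor the days in culture or under treatment. Nor do they say if each library had a culture of its own: p-values cover the spread among these libraries alone, part of which may be technical.

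Long noncoding RNAs act as RNA and not through a protein. Some build or fill bodies of the cell nucleus: Neat1 is the scaffold of paraspeckles, Malat1 gathers in nuclear speckles where splicing factors are stored, and Miat, also called Gomafu, forms its own nuclear foci in neurons. Others come from imprinted loci and are read from the maternal chromosome. H19 lies beside the growth factor gene Igf2, and Meg3 and Rian lie in the Dlk1-Dio3 domain together with many snoRNAs and miRNAs. Snhg11 is a snoRNA host gene that is abundant in neurons, and Pvt1 is the long noncoding neighbour of the Myc oncogene.

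Where each entry lies is given on GRCm38, 1-based, with the gene types of GENCODE M21. Malat1 (chr19:5795690-5802672, minus strand) and Neat1 (chr19:5824708-5845478, minus strand) are neighbouring lincRNA genes. Miat (chr5:112213228-112229395, minus strand) and H19 (chr7:142575529-142578143, minus strand) are lincRNA genes too. Meg3 (chr12:109541001-109571726, plus strand) is a lincRNA gene, and Rian (chr12:109603940-109661716, plus strand) is typed as a processed transcript. Rian is the name of 2 identifiers, of which only the one with the higher mean FPKM is described. Snhg11 (chr2:158375638-158386145, plus strand) is typed as protein-coding there, although it is known as a noncoding host gene.

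The remaining names need care. PVT1_1 (chr15:62038029-62038201, plus strand) is not the Pvt1 gene but a piece of 173 bases, named Gm27913 and typed misc_RNA in GENCODE M21. It lies wholly inside exon 1 of the transcript Pvt1-208, and 5 of the 10 annotated Pvt1 transcripts start with an exon that overlaps it. The identifier that the tables call Gm26924 is a lincRNA gene named Gm42418 in GENCODE M21 (chr17:39846958-39848788, plus strand). It is known to overlap a copy of the ribosomal RNA precursor.

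The PVT1_1 sequence is shown because its letters are also Pvt1 sequence: the 32 bases in lower case are left out of the shortest of the overlapping first exons, and the 141 bases in capitals are shared by all 5.
PVT1_1: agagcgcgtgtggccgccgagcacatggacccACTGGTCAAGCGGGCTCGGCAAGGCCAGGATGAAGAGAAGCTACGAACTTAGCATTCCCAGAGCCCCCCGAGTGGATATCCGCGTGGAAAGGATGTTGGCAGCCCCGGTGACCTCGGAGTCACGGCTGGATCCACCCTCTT

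Miat is known for copies of TACTAAC, the sequence of an efficient intron branch point, which bind splicing factor SF1. Transcript Miat-205, of 9163 bases, holds 6 copies on its own strand and 0 on the other. Neat1 held 1 copy in its longest transcript and the other 7 members none on their own strand, while Meg3 had 1 on the opposite strand. Of 2305 other transcripts within 25% of the length of Miat-205, 18.4% held at least 1 copy on their own strand and 20.0% on the other, and the highest number from any other gene in this length range was 3. Over transcripts of all lengths, 3 other genes had at least as many copies as Miat. Bases 5510 to 5629 of Miat-205 hold 3 of the copies, written in capitals.
Miat: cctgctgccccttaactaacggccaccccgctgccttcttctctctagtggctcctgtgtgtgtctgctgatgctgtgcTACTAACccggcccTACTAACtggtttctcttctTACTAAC

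H19 is the host of 1 miRNA hairpin, Mir675, and its mature sequences, from RefSeq on GRCm38.p6, are shown because the hairpin has its own row in the tables. The seed, bases 2 to 8, is in capitals, and the seeds of the arms differ.
mmu-miR-675-5p: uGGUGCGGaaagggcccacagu
mmu-miR-675-3p: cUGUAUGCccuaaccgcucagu

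The levels spanned more than 4 orders of magnitude. Gm26924 had the highest mean FPKM of all identifiers, 27239. Rian averaged 320.2 FPKM, Meg3 307 FPKM, Malat1 187 FPKM, Snhg11 47.4 FPKM and H19 28.8 FPKM over the 12 libraries. PVT1_1 at 5.54 FPKM and Miat at 4.47 FPKM were low, and Neat1 was lowest at 0.850 FPKM, with 4 libraries at or above 1 FPKM.

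**Figure D1:**
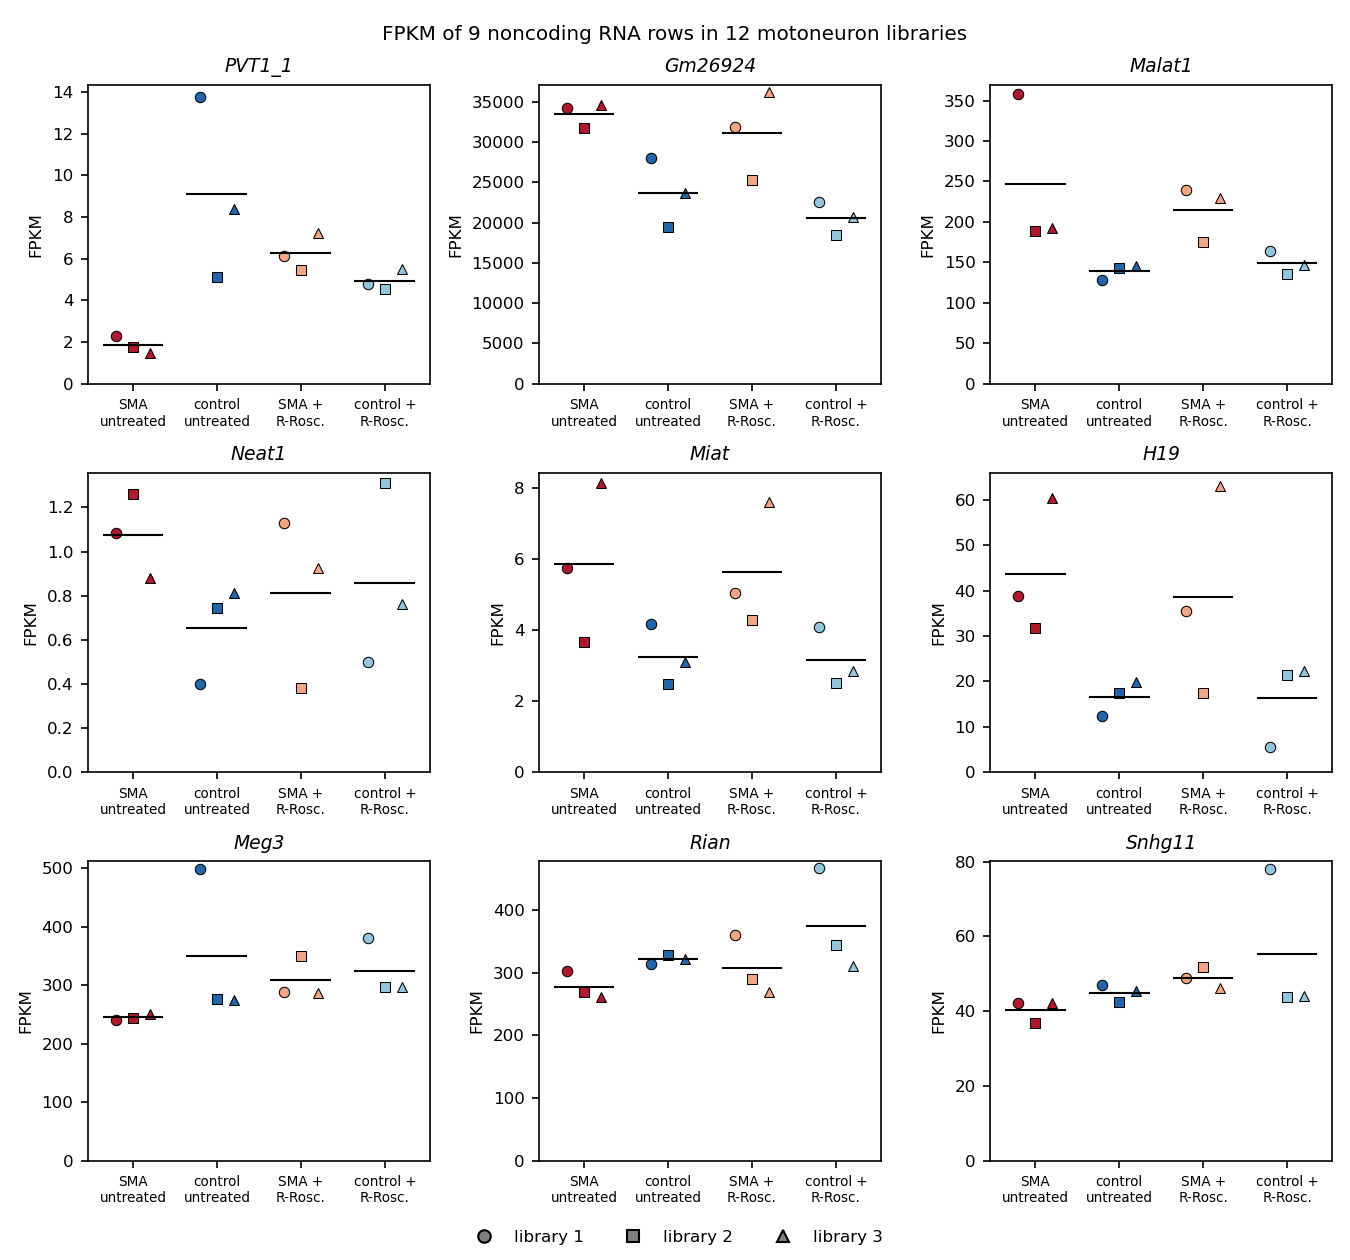
FPKM of each of the 9 entries (vertical axis, linear, from 0) in the 12 libraries, by group; symbols mark the library number and bars the mean of 3 libraries. Malat1 lay at 176 FPKM or more in all SMA libraries and at 164 FPKM or less in all control libraries, and PVT1_1 was lowest in the 3 untreated SMA libraries.

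Smn1 itself was as labelled. It averaged 7.29 FPKM in untreated SMA libraries and 41.1 FPKM in those of untreated controls, 17.7% of the control level, and 6.40 FPKM in treated SMA against 40.8 FPKM in treated control libraries, 15.7% (exact permutation test, two-sided p = 0.10 each, the smallest that 3 against 3 allows). The motoneuron label was checked against 10 markers, of which 6 or 7 stayed under 1 FPKM in each group. Most of them thus did not bear the label out, and it is used here as a label only. Chat, the acetylcholine-synthesising enzyme, did not exceed 0.0605 FPKM in any library and Mnx1 was listed at 0 in all 12, while Chodl, a marker of fast motoneurons, lay between 3.53 and 6.23 FPKM in SMA and between 7.32 and 18.1 FPKM in control libraries. Chodl was called lower in SMA averaged over treatment (limma, adjusted p = 0.0320), and not with treated and untreated libraries taken as pairs. Isl1, Isl2, Lhx3 and Slc5a7 did not exceed 0.845 FPKM in any library, and Ret, Mmp9 and Prph ran between 0.320 and 3.35 FPKM. Pan-neuronal markers were plentiful, with a summed level over 11 genes of 730.3 to 858 FPKM in untreated SMA, 874 to 1279 FPKM in untreated control, 849 to 1073 FPKM in treated SMA and 935 to 1376 FPKM in treated control libraries. The 3 smooth muscle markers summed to 2031 to 3577 FPKM over the 12 libraries, more than the neuronal sum in every library. Acta2 lay at 1428 to 2625 FPKM and Tagln at 603 to 951 FPKM, while Myh11 did not exceed 0.161 FPKM. Neither Acta2 nor Tagln was called between genotypes averaged over treatment, and which cells they came from was not tested. The estimated depth was 19.5 to 25.2 M reads in SMA and 23.3 to 28.7 M reads in control libraries. Libraries 3 of all 4 groups held Xist at 207 to 228 FPKM and the other 8 at 0.332 FPKM or less. The deviations of treated and untreated libraries with the same number and genotype went together (r = 0.24 to 0.59 over genes, 6 pairs).

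Between genotypes, averaged over treatment, 3 of the 7 known noncoding RNAs were called higher in SMA and none lower. These were Malat1, Miat and H19, with differences of 0.67, 0.69 and 1.30 on the scale of log2(scaled FPKM + 1). Over all genes tested, 4.77% were called in this comparison, 2.98% as higher and 1.79% as lower in SMA. The 7 were chosen with earlier results of these data known, so their share is no test against that of all genes. The calls were made by limma with Benjamini-Hochberg adjusted p under 0.05 over 15012 genes, and they treat the 12 libraries as independent. With the treated and untreated library of a number treated as a pair with a random effect, 0.413% of genes were called and none of the 7. With 1 library at a time left out, 6 to 1361 genes were called in place of 716, 6 of them without untreated SMA library 3 or without treated SMA library 1 and 1361 without treated SMA library 2. Malat1 was still called when untreated SMA library 1 or 2, untreated control library 3 or treated SMA library 2 was left out, and not without any of the other 8 (adjusted p 0.0139 to 0.0976 over the 12). Miat was still called without SMA library 2 of either treatment and not without any of the other 10 (0.0259 to 0.136), and H19 without treated SMA library 2 or treated control library 3 and not without any of the other 10 (0.0129 to 0.135). The 3 differences had the same sign each time. In bulk RNA, fewer cells of a type and less RNA per cell cannot be told apart.

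Within single treatments none of the 7 passed (adjusted p 0.218 to 0.816 without and 0.294 to 0.966 with R-Roscovitine), and 0.00666% of genes passed in either, namely Smn1. The ranges of the groups were also compared, as a description without a test. Without treatment, Malat1, Neat1 and H19 were higher in every SMA than in every control library, where 7.79% of all genes tested were, and Meg3, Rian and Snhg11 were lower in every one, where 12.4% of genes were. With R-Roscovitine, Malat1 and Miat were higher without overlap, where 8.91% of genes were, and none of the 7 was lower without overlap, where 8.87% were. Malat1 was the single one of the 7 that did not overlap between genotypes in either treatment, where 2.46% of all genes were higher in SMA in this way.

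Malat1 had 358, 189 and 192 FPKM in untreated SMA against 128, 143 and 145 FPKM in untreated control libraries. Under R-Roscovitine the SMA libraries had 240, 176 and 229 FPKM, and the control libraries 164, 136 and 146 FPKM. SMA library 1 stood highest in both treatments, and the groups did not overlap. The means were 1.78 times the control level without and 1.45 times with treatment. The averaged difference was 0.67 ± 0.15 (SE; limma, adjusted p = 0.0339, and 0.0944 with pairs as a random effect), in the same direction in the 2 treatments, where it was 0.80 ± 0.22 without and 0.54 ± 0.22 with R-Roscovitine.

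Other rows overlap Malat1 on the same strand, and the tables do not say how reads were shared out among them. Gm20417, which lies wholly within Malat1 (chr19:5797562-5798549), had 79.8, 10.7 and 27.5 FPKM in untreated SMA libraries and 7.77e-21, 15.6 and 12.96 FPKM in those of untreated controls. The treated SMA libraries had 62.0, 17.7 and 22.9 FPKM, compared with 25.7, 14.2 and 19.3 FPKM in the treated control libraries. A row of 86 bases named MALAT1 (chr19:5799000-5799085) ranged from 0.616 to 15.8 FPKM in untreated SMA libraries and from 1.43e-19 to 6.46 FPKM in those of untreated controls. Both rows were practically at 0 in untreated control library 1, where Malat1 was also lowest of its group.

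**Figure D2:**
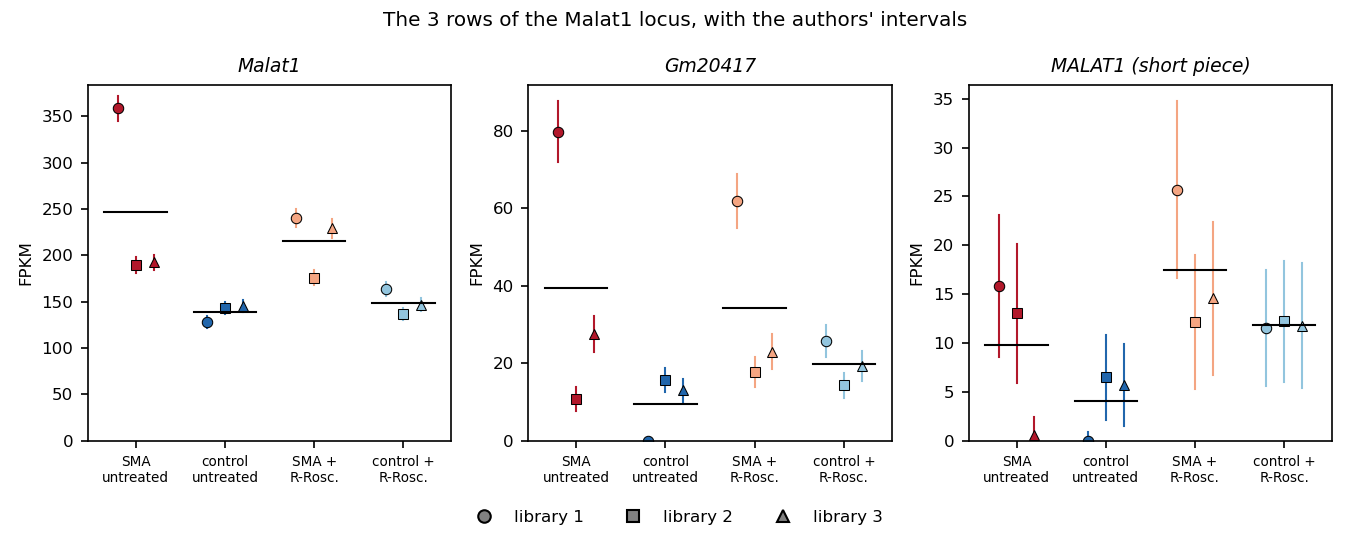
FPKM of Malat1 and of the rows Gm20417 and MALAT1 inside it (vertical axes, linear, from 0) by group; vertical lines are the interval that the authors' tables give for each value and bars the mean of 3 libraries. In the untreated SMA group library 1 is highest in all 3 rows, and in the untreated control group library 1 is lowest in all 3.

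Neat1 was low but detected, the authors' interval lying above 0 in all 12 libraries. It had 1.08, 1.26 and 0.882 FPKM in untreated SMA against 0.399, 0.745 and 0.814 FPKM in untreated control libraries, which did not overlap. In treated cultures the values were 1.13, 0.381 and 0.925 FPKM for SMA and 0.501, 1.31 and 0.763 FPKM for control libraries, and the ranges overlapped. The averaged difference of 0.16 ± 0.15 was not called (adjusted p = 0.562). Genes of the proteins that assemble paraspeckles were expressed well above it: of 22 tested, among them Sfpq at 123 FPKM and Nono at 107 FPKM, 11 were higher and 11 lower in SMA and none was called, with a median difference of -0.01, as over all genes.

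Miat had 5.74, 3.67 and 8.15 FPKM in untreated SMA against 4.17, 2.48 and 3.10 FPKM in untreated control libraries. Under R-Roscovitine the SMA libraries had 5.06, 4.28 and 7.60 FPKM, and the control libraries 4.08, 2.51 and 2.85 FPKM. Library 3 was highest in SMA in either treatment, and library 1 in control. The mean was 1.80 times the control level without and 1.79 times with R-Roscovitine, and the averaged difference was 0.69 ± 0.18 (adjusted p = 0.0498, and 0.103 with pairs as a random effect). Without libraries 3 in all groups it was 0.43 (adjusted p = 0.402). Of 21 genes for nuclear speckle proteins, 11 were higher and 10 lower in SMA, and 1 was called: Qk, which encodes the RNA-binding protein Quaking, with a difference of 0.74 ± 0.15 (adjusted p = 0.0244), which was not called with pairs as a random effect. Sf1, which encodes the branch point factor, differed by -0.21 ± 0.16 and was not called (adjusted p = 0.455).

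H19 showed the largest difference of the 7, and the widest spread. Without treatment the SMA libraries had 38.8, 31.7 and 60.4 FPKM, compared with 12.3, 17.5 and 19.8 FPKM for the control libraries, without overlap. The treated SMA libraries had 35.5, 17.4 and 63.1 FPKM, compared with 5.54, 21.4 and 22.2 FPKM in the treated control libraries, where SMA library 2 lay inside the control range. The means were 2.64 and 2.36 times the control level. The averaged difference was 1.30 ± 0.35 (adjusted p = 0.04997, just under the threshold, and 0.108 with pairs as a random effect). The Mir675 row was listed at 0 in all 12 libraries, so the tables carry no value for the miR-675 arms shown above.

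Igf2, the growth factor gene beside H19 that is read from the paternal chromosome, was high in library 1 of the SMA group. It had 17.1, 3.09 and 4.39 FPKM in untreated SMA against 0.613, 2.69 and 1.76 FPKM in untreated control libraries, and 18.8, 2.60 and 5.34 FPKM in treated SMA against 0.964, 3.77 and 1.82 FPKM in treated control libraries. Its averaged difference of 1.47 ± 0.45 was not called (adjusted p = 0.0753). Of the 19 other tested genes of the imprinted growth network none was called, 12 being higher and 7 lower in SMA. Plagl1, a zinc finger regulator of that network, came nearest with 0.31 ± 0.09 (adjusted p = 0.0619).

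Meg3 had 241, 245 and 252 FPKM in untreated SMA against 499, 277 and 274 FPKM in untreated control libraries. The SMA libraries lay close together and below the control libraries, of which library 1 stood far above the others. In treated cultures the values were 288, 351 and 286 FPKM for SMA and 381, 298 and 297 FPKM for control libraries, and the ranges overlapped. The difference was -0.41 ± 0.19 without (adjusted p = 0.356) and -0.06 ± 0.19 with treatment (adjusted p = 0.923). Without untreated control library 1 the first difference was -0.14, and without treated control library 1 the second was 0.06.

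Rian had 303, 268 and 262 FPKM in untreated SMA against 315, 328 and 322 FPKM in untreated control libraries. Under R-Roscovitine the SMA libraries had 361, 291 and 269 FPKM, and the control libraries 468, 344 and 311.5 FPKM. The averaged difference of -0.21 ± 0.11 was not called (adjusted p = 0.268). Within Rian lie 13 rows for snoRNAs and 4 for miRNAs, which were mostly listed at 0.

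Of the 6 other tested genes of the Dlk1-Dio3 list, 2 were higher and 4 lower in SMA and none was called. Mirg, a further maternally expressed noncoding gene of the domain, averaged 22.2 ± 2.42 FPKM in untreated SMA libraries and 25.4 ± 8.01 FPKM in those of untreated controls (SD, n = 3 each). Dlk1, the paternally expressed Notch-pathway ligand gene, averaged 32.1 ± 14.3 FPKM in untreated SMA libraries and 35.7 ± 15.04 FPKM in those of untreated controls (SD, n = 3 each). Both pairs of groups overlapped in range.

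Snhg11 had 42.3, 36.8 and 42.1 FPKM in untreated SMA against 46.8, 42.5 and 45.3 FPKM in untreated control libraries, which did not overlap but lay close together. The treated SMA libraries had 48.8, 51.9 and 46.0 FPKM, compared with 78.0, 43.7 and 43.9 FPKM in the treated control libraries, of which library 1 stood apart. The averaged difference was -0.10 ± 0.13 (adjusted p = 0.674), and without treated control library 1 it was 0.03. Among the 10 other tested snoRNA host genes, such as Gas5 and Snhg1, 4 were higher and 6 lower in SMA, and none was called.

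Markers of some cell types moved with genotype in the same libraries. Astroglial markers summed to 439 to 1025 FPKM in untreated SMA libraries and 233 to 328 FPKM in those of untreated controls, and to 297 to 830.4 FPKM in treated SMA and 262 to 317 FPKM in treated control libraries. Of the 9 tested, 8 were higher in SMA and 5 were called (Gfap, Slc1a3, Fabp7, Mlc1 and Kcnj10), or 2 with pairs as a random effect. The sum was highest in SMA library 1 in both treatments, the library with the most Malat1. Miat and H19 were highest in SMA library 3 in both treatments, where the sum was 599 FPKM without and 627 FPKM with R-Roscovitine. All 11 neuronal markers were lower in SMA, 1 of them called (Syn1), and their sum was highest in control library 1 in both treatments. Meg3 was highest of its group in control library 1 in both treatments, and so was Snhg11, though narrowly without treatment. Rian was highest there with treatment and lowest without. Of 8 interneuron markers 7 were lower in SMA and 2 were called (Gad1 and Slc6a5), with a median difference of -0.46. Neither neuronal nor interneuron markers had a call with pairs as a random effect. All 13 mitochondrially encoded mRNAs were higher in SMA in either treatment, with a median averaged difference of 0.20, and none was called. Fibroblast and mesenchymal markers summed to 120 to 213 FPKM in untreated SMA libraries and 178 to 363 FPKM in those of untreated controls. With treatment the sums were 121 to 233 FPKM in SMA and 164 to 328 FPKM in control libraries, and the ranges overlapped in either treatment. Fn1 alone ran from 77.5 to 247 FPKM. Of the 6 tested, 5 were lower and 1 higher in SMA, and none was called (limma, lowest adjusted p = 0.130). Lum went the other way, with 0.0682 to 3.46 FPKM in SMA and 0 to 0.0620 FPKM in control libraries. The part of these genes and cell types in the differences of the noncoding RNAs was not tested.

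**Figure D3:**
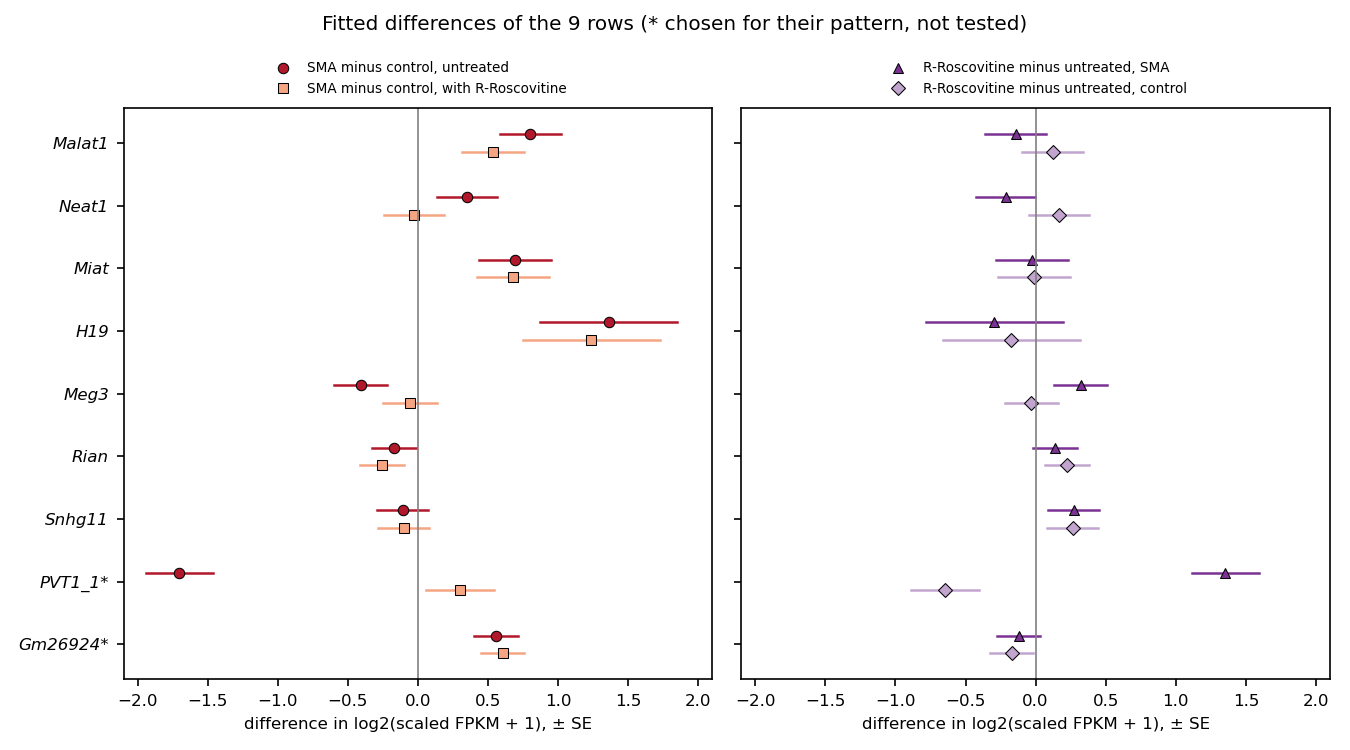
Fitted differences of the 9 entries on the scale of log2(scaled FPKM + 1), with SE over 12 libraries; left, SMA minus control in each treatment, right, R-Roscovitine minus untreated in each genotype. Malat1, Miat and H19 lie right of 0 between genotypes in either treatment, between 0.54 and 1.36, and of the tested entries none exceeds 0.32 in size on the right.

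R-Roscovitine changed none of the 7 past the threshold in either genotype (limma, lowest adjusted p 0.999), and 0% of all genes tested were called. By limma, 364 genes in SMA and 191 genes in control cultures had an unadjusted p under 0.05, where 751 would be expected by chance if the libraries were independent. With pairs as a random effect these counts were 1021 and 568, again with no gene called. In SMA cultures Meg3 and Snhg11 were higher in every treated than in every untreated library, where 6.18% of all genes were, and none of the 7 was lower in this way, where 4.94% were. In control cultures none of the 7 was free of overlap, where 1.5% of genes were higher and 3.04% lower.

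Meg3 was higher with treatment in 3 of 3 SMA pairs, by 47.2, 106 and 34.6 FPKM. In control pairs the treated minus untreated difference was -118 FPKM in library 1, 20.8 FPKM in library 2 and 22.7 FPKM in library 3. The fitted treatment difference was 0.32 ± 0.19 in SMA and -0.03 ± 0.19 in control cultures, and the difference between them, 0.35 ± 0.27, was not called (adjusted p above 0.999).

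Rian and Snhg11 were each higher with treatment in 5 of 6 pairs, as was Meg3. The share of all genes that were so was not counted. Rian differed by 0.14 ± 0.16 in SMA and 0.22 ± 0.16 in control cultures. For Snhg11 the difference was 0.27 ± 0.18 in SMA and 0.27 ± 0.18 in control cultures, and 0.27 ± 0.13 averaged over genotype (unadjusted p = 0.0577, adjusted p above 0.999). The summed neuronal markers given above were also higher in the treated than in the untreated library of all 6 pairs, and their part in these values was not tested. Malat1 and H19 were higher with treatment in 3 of 6 pairs each, Miat in 2 of 6 and Neat1 in 4 of 6.

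PVT1_1 was picked for its values, which ran in opposite directions in the genotypes. It had 2.28, 1.78 and 1.49 FPKM in untreated SMA against 13.7, 5.12 and 8.39 FPKM in untreated control libraries. In treated cultures the values were 6.12, 5.48 and 7.22 FPKM for SMA and 4.78, 4.56 and 5.51 FPKM for control libraries. The untreated SMA libraries lay below all others, and the treated groups overlapped. Treated libraries exceeded their untreated partners in 3 of 3 SMA pairs, to 2.68, 3.07 and 4.86 times the untreated level, and in 0 of 3 control pairs, which lay at 0.347, 0.892 and 0.657 times. The fitted differences were -1.70 between untreated genotypes, 0.30 between treated genotypes, 1.35 with treatment in SMA and -0.65 with treatment in control cultures. Among genes tested, 12.4% were lower without overlap in the first of these and 6.18% higher in the third, and nothing is read from this for a row chosen on the same values.

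Few reads stand behind a row of 173 bases at these levels. The interval in the authors' tables ran from 0.541 to 4.03 FPKM for the highest untreated SMA library and from 2.83 to 7.40 FPKM for the lowest untreated control library, so the nearest libraries of the 2 groups overlapped within their own intervals. That of untreated control library 1, at 13.7 FPKM, ran from 10.1 to 17.3 FPKM. The same library held pieces of Tug1, another long noncoding RNA, at levels apart from its group: TUG1_3 stood at 89.7 FPKM there against 39.7 and 40.4 FPKM in the other untreated control libraries, and TUG1_4 at 1.71 FPKM against 40.3 and 46.2 FPKM, while the whole gene Tug1 had 39.4 FPKM against 48.9 and 55.0 FPKM. RMST_10, a piece of Rmst, had 27.1 FPKM there against 25.2 and 34.5 FPKM, within its group. The Tug1 rows were added after their values were seen, and any bearing on PVT1_1 was not tested. The untreated groups did not overlap for PVT1_1, so leaving out untreated control library 1 could not change the direction of its difference.

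The host gene did not show the pattern. Pvt1 had 9.18, 7.47 and 5.07 FPKM in untreated SMA against 6.67, 10.4 and 8.29 FPKM in untreated control libraries. Under R-Roscovitine the SMA libraries had 5.40, 10.04 and 6.96 FPKM, and the control libraries 7.27, 9.74 and 8.08 FPKM. The groups overlapped in each comparison, and treated libraries exceeded their partners in 2 of 3 SMA and 1 of 3 control pairs. Its averaged genotype difference was -0.17 ± 0.17 (adjusted p = 0.588). Since PVT1_1 is exon sequence of Pvt1 on the same strand, reads from its bases could be assigned to either row.

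**Figure D4:**
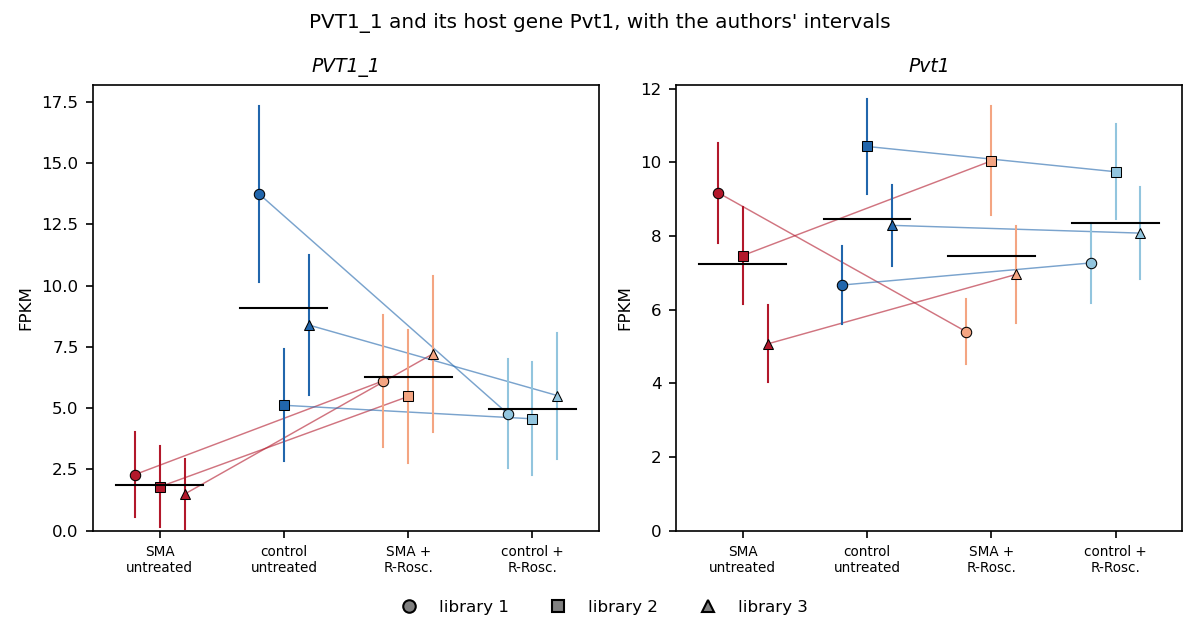
FPKM of PVT1_1 and of its host gene Pvt1 (vertical axes, linear, from 0) by group; vertical lines are the authors' intervals, thin lines join the untreated and treated library of a number and genotype, bars are means of 3. PVT1_1 lies higher with treatment in 3 of 3 SMA pairs and lower in 3 of 3 control pairs, and Pvt1 has no such order.

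Of the 7 tested genes in the list of Myc, its relatives and the neighbours of Pvt1, 2 were higher and 5 lower in SMA and none was called. Myc averaged 17.7 ± 5.10 FPKM in untreated SMA libraries and 28.8 ± 5.00 FPKM in those of untreated controls (SD, n = 3 each), with an averaged difference of -0.56 ± 0.16 (adjusted p = 0.0651).

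Gm26924 was also picked for its values. It had 34218, 31737 and 34659 FPKM in untreated SMA against 28066, 19491 and 23626 FPKM in untreated control libraries. The treated SMA libraries had 31827, 25345 and 36271 FPKM, compared with 22542, 18410 and 20682 FPKM in the treated control libraries. Every SMA library exceeded every control library of its treatment, and library 2 was lowest in all 4 groups. Its share of the summed FPKM was 4.52% to 4.85% in untreated SMA and 2.83% to 3.81% in untreated control libraries, and 3.57% to 5.05% in treated SMA and 2.62% to 3.39% in treated control libraries. The fitted difference was 0.56 without and 0.61 with treatment. Under quantile normalization, which gives rows of the same rank the same value in all libraries, it was 0.10 without and 0.48 with treatment.

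AY036118, a row that overlaps Gm26924 on the other strand, stood at practically 0 in all libraries. Gm26917, a noncoding row that is known, like Gm26924, to collect ribosomal RNA reads, had 9.71, 6.95 and 8.70 FPKM in untreated SMA against 8.91, 3.65 and 4.49 FPKM in untreated control libraries. In treated cultures the values were 10.3, 8.68 and 8.43 FPKM for SMA and 2.56, 4.42 and 5.43 FPKM for control libraries, with an averaged difference of 0.82 ± 0.19 (adjusted p = 0.0330). Of the 8 tested features of the ribosomal and structural RNA list other than Gm26924, 7 were higher in SMA and 2 were called higher, Gm26917 and Lars2, a mitochondrial leucyl-tRNA synthetase gene whose locus is known to hold ribosomal RNA sequence. With pairs as a random effect neither was called. How much ribosomal RNA each library retained was not measured separately, and its part in these values was not tested.

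As a class, long noncoding RNAs had calls in either direction. Of 534 tested long noncoding RNA genes of GENCODE M21, 27 were called higher and 5 lower in SMA averaged over treatment, 5.99% against 4.77% of all genes, with a median difference of 0.03 against -0.01. With pairs as a random effect 4 of the 534 were called, all higher. Among 29 further named long noncoding RNAs, 19 were higher and 10 lower, with a median of 0.24, and 3 were called, all higher in SMA. Sox2ot, which overlaps the progenitor gene Sox2, averaged 14.6 ± 4.49 FPKM in untreated SMA libraries and 5.42 ± 0.953 FPKM in those of untreated controls (SD, n = 3 each), a difference of 1.29 ± 0.19 over both treatments (adjusted p = 0.0168). Mir9-3hg (AI854517 in the tables), host of a miRNA of neural progenitors, averaged 25.6 ± 8.73 FPKM and 12.2 ± 6.02 FPKM in the same groups, a difference of 1.36 ± 0.23 (adjusted p = 0.0174). Rmst, known from neurogenesis in human cells, differed by 0.52 ± 0.14 (adjusted p = 0.04997). With pairs as a random effect 2 of the 3 calls remained in number. Of 9 neural progenitor markers, 8 were higher and 1 lower in SMA. Of these, 5 were called higher (Sox1, Sox2, Olig2, Nkx2-2 and Notch1), or 2 with pairs as a random effect. The sums of the 9 overlapped, at 2144 to 3501 FPKM in untreated SMA and 3085 to 3439 FPKM in untreated control libraries. With treatment they were 2377 to 3437 FPKM in SMA and 1971 to 3263 FPKM in control libraries. The part of these markers in the values of the noncoding RNAs was not tested. Of 11 tested genes of Polycomb repressive complex 2, to which several long noncoding RNAs are reported to bind, 1 was called higher in SMA: Phf19, with 0.74 ± 0.16 (adjusted p = 0.0267), which was not called with pairs as a random effect.

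The genes whose FPKM ran most like each entry were taken from 10503 genes with a mean of 5 FPKM or more, by Pearson's r over the 12 libraries, which share genotype, treatment and pairing, so r carries no p. For Gm26924 they were Dll1, a Notch ligand gene (r = 0.98), Paqr7 (r = 0.98) and Gm3764, a lincRNA gene (r = 0.96). Dll1 averaged 9.48 FPKM in SMA and 4.26 FPKM in control libraries. Malat1 ran most like Nebl (r = 0.96), Mettl8 (r = 0.94) and Chmp5, an ESCRT-III gene (r = 0.94). Miat ran most like Adcyap1r1, the PACAP receptor gene (r = 0.96), Neo1, which encodes the guidance receptor neogenin (r = 0.95), and Id4, an inhibitor of bHLH factors (r = 0.95).

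For H19 the nearest were Cdk2ap1 (r = 0.98), Tom1l1 (r = 0.97) and Reep3 (r = 0.97). Meg3 ran most like Caskin1, a synaptic scaffold gene (r = 0.98), Celf5, an RNA-binding protein gene (r = 0.97), and Ulk2, an autophagy kinase gene (r = 0.97). For Rian they were Vsnl1, a neuronal calcium sensor gene (r = 0.96), Inpp5f (r = 0.96) and Pde4d (r = 0.96). Snhg11 ran most like Elavl4, which encodes the neuronal RNA-binding protein HuD (r = 0.95), St8sia3 (r = 0.94) and Pygo1 (r = 0.93). Neat1 ran most like Tpd52 (r = 0.92), Zfp317 (r = 0.88) and Ei24 (r = 0.86), and PVT1_1 like Surf2 (r = 0.86), Cpsf3l (r = 0.86) and Abhd16a (r = 0.85).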

How the data were processed

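The authors deposited FPKM per gene for 12 libraries, each with an interval and a status. Libraries were made from total RNA with a Lexogen mRNA kit, per the labels' protocols. Per the submitters' processing notes, FastQC 0.10.1, Trim Galore 0.4.0 and Cufflinks 2.2.1 were used with GRCm38. The sources used here do not give the aligner, strand setting or annotation release. In each library 2 to 8 values carried a failed or low-data status, none of them a member's. Counts were not used here: depth was estimated from the smallest step of low FPKM times length, but 35.6% to 39.0% of such values came out as whole reads, so no count test was run. The intervals cover counting and assignment error only.

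FPKM were scaled by median-of-ratios factors, genes at 1 FPKM or more in at least 3 of 12 libraries were kept, and small RNA types were left out. limma 3.58.1 (R 4.3.3; trend, two-sided, 4 group means, 7 comparisons) was run on log2(scaled FPKM + 1), which understates changes of low genes, with Benjamini-Hochberg adjustment over 15012 genes and a threshold of 0.05. It was tested on simulated data. Group levels are unscaled FPKM. Smn1 was also compared by exact permutation. Table starts were 0-based (start plus 1 equals the GENCODE M21 start for 29304 of 37646 identifiers), and printed positions are 1-based. Transcript sequences are from GENCODE M21 and miRNAs from RefSeq. Libraries of a genotype with the same number were taken as pairs because their deviations correlated in all 6 pairs (0.24 to 0.59), which the titles' numbers alone do not state. Across genotypes same-numbered libraries correlated at -0.05 to 0.32, positive in 10 of 12 and over 0.1 in 7. Differently numbered ones correlated at -0.30 to 0.18, positive in 6 of 24 and over 0.1 in 1. Same-numbered libraries thus went together to some degree across genotypes too, and libraries 3 share high Xist. Numbers were not taken as pairs across genotypes, and the number as a fixed block is given as an alternative. The members and gene lists were chosen with earlier results of these data known. Named genes are the 9 members and Smn1, the 3 genes most like each member, the called genes of each list or else examples with high FPKM, and rows overlapping a member. Tug1 rows, Ddx3y, further cell type markers and genes near the threshold were added after their values were seen. Python 3.11.15, pandas 2.3.3 and matplotlib 3.10.9 were used.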

Additional observations from a re-analysis of the deposited data

Results flagged for a closer look

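PVT1_1 moved one way with R-Roscovitine in every SMA pair and the other way in every control pair. The mean change was 4.42 FPKM in SMA pairs, higher in 3 of 3, and -4.13 FPKM in control pairs, lower in 3 of 3. PVT1_1 was chosen for this pattern, so the difference between genotypes was not tested. Of the control pairs, library 1 differed most, by -8.97 FPKM, against -0.553 FPKM for library 2 and -2.88 FPKM for library 3.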

How the results depend on the processing

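Counts are genes called by limma at an adjusted p under 0.05. Between untreated genotypes, 1 gene in the main setting, there were 2 with an offset of 0.1, 2 with FPKM rescaled to a common sum, 443 with library weights, 319 with the replicate block of numbers as a fixed term, and 2 without libraries 3 in all groups. Between treated genotypes, also 1, there were 2 with a common sum, 15 with library weights, 250 with that replicate block, 3 with only the groups compared and 2 without libraries 3. Averaged over treatment, 716, there were 1 with no filter on low values, 2016 with library weights, 1774 with the fixed replicate block, 62 with pairs as a random effect, 1 with 1 mean per pair and 2 without libraries 3. The interaction, 0, gave 1 with no filter. Leaving out 1 library at a time gave 1 to 6 between untreated genotypes, 1 to 225 between treated genotypes, 6 to 1361 averaged, 0 to 1 for the interaction, and 0 for each treatment comparison. Over 23 alternatives Malat1 was called averaged over treatment in 11 (adjusted p 0.0110 to 0.230), Miat in 6 (0.00990 to 0.402) and H19 in 7 (0.0129 to 0.257), each higher in SMA in all 23. Some uncalled differences changed sign. Between treated genotypes, leaving out 1 library at a time put Neat1 between -0.173 and 0.159, Meg3 between -0.142 and 0.0597 and Snhg11 between -0.2466 and 0.168, and library weights gave 0.0471 for Snhg11. Averaged over treatment Snhg11 lay between -0.177 and 0.0303. With the number as a fixed block across genotypes, Malat1 (adjusted p = 0.0110), Miat (0.00990) and H19 (0.0139) kept their calls. The cause was not tested. Apart from the calls of Malat1, Miat and H19, blocking by pair changed no call of a member. The fits with 1 mean per pair and without libraries 3, and pairs as a fixed block, were added after the data were seen. Depth limits PVT1_1 most.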
